A study of Drosophila melanogaster with 12 samples.

Results

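In Drosophila melanogaster larvae, the eye part of the eye-antennal disc was compared between 120 h and 96 h after egg laying, the last day of larval life, with 1 RNA sequencing library at each age. All genes with at least 5 FPKM (fragments corrected for transcript length and for the total mapped) in the higher of the 2 eye libraries were taken, apart from symbols that begin snoRNA:, sncRNA: or mir-. This left 7241 of the 10893 genes in the table. Another 385 were left out by symbol and 3267 lay below the floor in both eye libraries. At the edge of the floor, Notum reached 5.01 FPKM and was included, and CG4313 reached 4.998 FPKM and was not. The change of a gene is log2((FPKM at 120 h + 1)/(FPKM at 96 h + 1)) throughout, a scale that understates the change of low genes. With 1 library in each group there is no replicate check and no p for the step within the eye part. A gene is said to have risen or fallen where its change was at least 1 or at most -1, which is 2-fold on this scale.

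Larvae of every group were of the strain w[11-18], which carries a mutation of the eye pigment transporter gene white, and grew at 25°C on yeast and glucose food. The eye part was dissected from live larvae at 120 ± 1 h and at 96 ± 1 h. The antenna part at the same 2 ages and the whole eye-antennal disc at 120 ± 1 h and 96 ± 1 h are given beside it, and whole discs at 72 ± 1 h and at white puparium formation (WPP) extend the series. The labels do not say how many larvae gave a library. The series holds 12 libraries in all.

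The larval eye disc is a folded epithelium in which a front of differentiation, the morphogenetic furrow, sweeps from posterior to anterior. Cells ahead of it divide and express the retinal determination factors, cells in it arrest and choose the founder photoreceptor R8 through the proneural gene ato, and cells behind it are recruited by EGF receptor, Notch and Sevenless signals as the other photoreceptors and then as lens-secreting cone cells. Photoreceptors send axons to the brain while the disc is still larval, and make their light-sensing machinery only in the pupa. Late in the last larval stage a pulse of the steroid hormone ecdysone starts metamorphosis, in which the disc turns inside out and secretes new cuticle.

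Genes that mark the eye field were high in both libraries, as the label says. The zinc finger factor gl, which acts in cells behind the furrow, stood at 126 FPKM at 120 h and 123 FPKM at 96 h in the eye part, against 5.03 and 5.17 FPKM at the same ages in the antenna part. The retinal factors so and eya stood at 53.7 and 121 FPKM at 120 h and at 67.1 and 191 FPKM at 96 h in the eye part, and at no more than 6.63 FPKM (so) and 13.4 FPKM (eya) in the antenna part. Dll, which specifies antenna, was at 6.38 FPKM at 120 h and 7.19 FPKM at 96 h in the eye part, against 80.0 and 129.5 FPKM in the antenna part. Numbers of reads are unknown, and the values of each library sum to between 939303 and 2210260 FPKM over the table. In bulk tissue, fewer cells of a type and less RNA per cell cannot be told apart.

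From 96 to 120 h, 345 genes rose in the eye part (4.76% of the 7241) and 344 fell (4.75%). Of these, 87 rose and 152 fell at least 4-fold, and 29 rose and 83 fell at least 8-fold. Several of the most extreme values belonged to small noncoding RNAs other than those left out, such as tRNA and snRNA genes listed at 0 in 1 eye library. The median change was -0.14, and 90% of genes lay between -0.97 and 0.97. At the edge of the rule, CG5687 rose by 1.0004 while CG31710 stood at 0.9996, and CG15784 stood at -1.001 while CG9752 stood at -0.9995. Rescaling the libraries by the median ratio over genes raises eye changes by up to about 0.17 on the log2 scale, and by less for low genes. This makes 447 genes rise and 268 fall, so that risers make up more of the calls. The same rule gave 296 risers (4.11%) and 580 fallers (8.05%) among 7205 genes of the antenna part, and 302 risers (4.17%) and 335 fallers (4.63%) among 7240 genes of the whole disc.

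The whole disc libraries were made separately, share no library with the eye part, and contain eye tissue. Direction in the whole disc depended on transcript length. Of the 225 risers with a longest annotated transcript of at least 1000 nt, 206 (91.6%) had a positive change in the whole disc, where 48.5% of all 5711 such genes above the floor did. Of the 93 risers with a shorter transcript, 50 (53.8%) did, beside 34.8% of all 1112 short genes, and 22 (23.7%) fell in the whole disc. Of the 187 long fallers 156 (83.4%) had a negative change in the whole disc (51.5% of long genes), and of the 134 short fallers 91 (67.9%) did (64.5% of short genes). The short ribosomal protein gene RpL41 is an example: it was listed at 187489 FPKM at 120 h and 25600.0 FPKM at 96 h in the eye part, and at 23965 and 114492 FPKM at the same ages in the whole disc. RpL39 did the same, with changes of 2.99 in the eye part and -2.23 in the whole disc. Risers and fallers are therefore described mainly from genes with long transcripts.

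**Figure D1:**
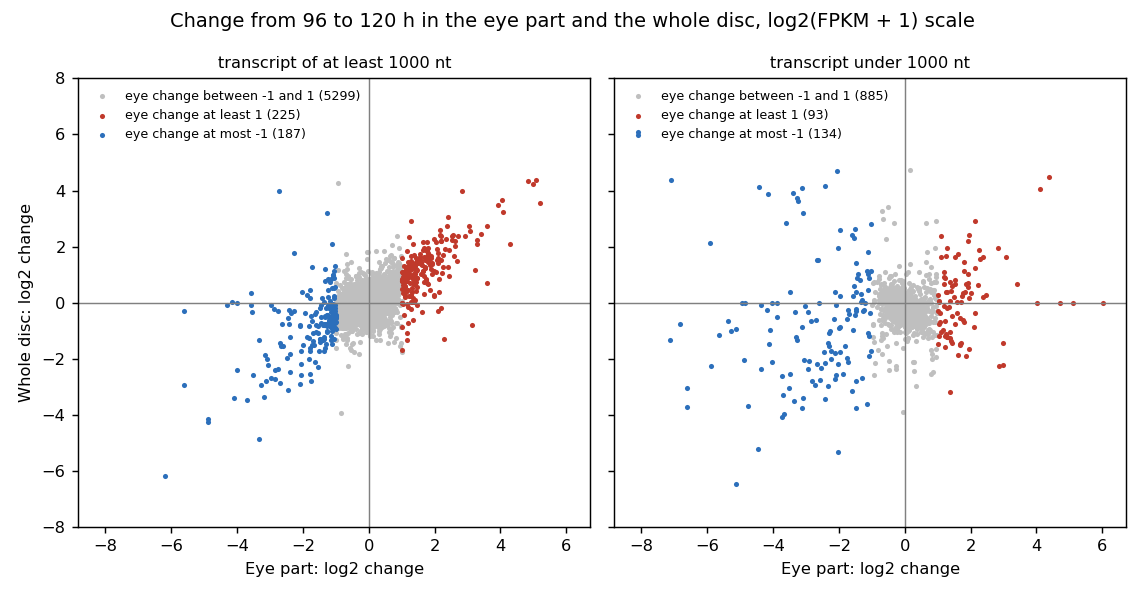
Change from 96 to 120 h in the eye part (x axis) and in the whole disc (y axis), log2 scale, 1 point per gene above the floor, for genes whose longest annotated transcript is at least 1000 nt (left) or shorter (right). Red points rose and blue points fell in the eye part, with their number in the legend. On the left 206 of 225 red points lie above 0 in the whole disc, and on the right 50 of 93 do.

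The 3 largest rises among long named genes belonged to the response to ecdysone. ImpE2, a secreted product first found as ecdysone-inducible in discs, stood at 4582 FPKM at 120 h and 124 FPKM at 96 h in the eye part, a change of 5.20. Hr3, an early-late nuclear receptor that passes the hormone signal on, was at 42.3 FPKM at 120 h and 0.276 FPKM at 96 h, a change of 5.09. Blimp-1, a zinc finger repressor that is induced by ecdysone and times later steps, was at 43.5 FPKM at 120 h and 0.415 FPKM at 96 h, a change of 4.98. All 3 genes went the same way outside the eye part. Hr3 was at 36.7 FPKM at 120 h and 0.0275 FPKM at 96 h in the antenna part, and at 30.6 and 0.528 FPKM in the whole disc. The eye change of Hr3 differed from its antenna change by -0.11 and that of Blimp-1 by -0.22.

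Of 13 genes above the floor on the list of ecdysone receptor and early genes, 4 rose and 3 fell in the eye part, with a list median of 0.54 beside -0.14 over all genes. For this and the lists below, 4.76% of all genes above the floor rose and 4.75% fell. All lists were written with earlier results of these data known. Besides Hr3 and Blimp-1, the nuclear receptor gene Eip78C rose, with 23.6 FPKM at 120 h and 3.21 FPKM at 96 h, and so did the ABC transporter gene E23, with 5.71 and 0.945 FPKM. The fallers were ftz-f1, a nuclear receptor that gives tissues competence for the next hormone pulse, the receptor gene EcR itself, and chinmo, a BTB zinc finger factor of early larval stages. ftz-f1 was at 1.44 FPKM at 120 h and 14.0 FPKM at 96 h, EcR at 24.1 and 56.4 FPKM, and chinmo at 6.21 and 14.7 FPKM. The change of EcR was -1.19 here and -1.30 in the antenna part. That of chinmo was -1.12, against -2.82 in the antenna part, where it stood at 3.83 FPKM at 120 h and 33.0 FPKM at 96 h. Median-ratio rescaling or a pseudocount of 5 FPKM leaves 2 fallers, ftz-f1 and EcR. usp, the partner of EcR in the hormone receptor, changed by -0.02, and the early genes Eip75B and Eip74EF by 0.67 and -0.54, within the rule.

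Of 18 disc eversion genes 11 rose and none fell, where 4.76% of all genes above the floor rose and 4.75% fell. Their median was 1.27, and with a pseudocount of 5 FPKM 9 rose. ImpE1 was at 414 FPKM at 120 h and 20.3 FPKM at 96 h, ImpE3 at 202 and 23.7 FPKM, and ImpL1 at 16.1 and 0.0175 FPKM. The serpin gene Spn100A, a predicted protease inhibitor, was at 45.9 FPKM at 120 h and 0.654 FPKM at 96 h, and tnc, a large extracellular matrix protein, at 40.4 and 3.92 FPKM. Sb, a membrane serine protease needed for legs and wings to evert, was at 9.84 FPKM at 120 h and 1.14 FPKM at 96 h, and in the antenna part at 40.9 and 9.75 FPKM. The chitinase gene Cht5, ImpL2, whose product binds insulin-like peptides, the metalloprotease inhibitor gene Timp and the zona pellucida domain gene pio complete the risers, with changes of 2.19, 1.22, 1.31 and 1.03. Of the 7 others 6 had a negative change, the lowest -0.90, and with a pseudocount of 0.1 FPKM 1 gene falls. The 7 include Rho1 and RhoGEF2, which drive epithelial folding, at -0.04 and -0.24. The same list had 9 risers and 1 faller in the antenna part, and 8 risers and 1 faller in the whole disc.

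The whole disc series places these rises in time. Over 72 h, 96 h, 120 h and WPP, ImpE2 was at 5.59, 166, 1946 and 5650.4 FPKM in the whole disc. Hr3 was at 0.194, 0.528, 30.6 and 174 FPKM, and Spn100A at 0.870, 0.756, 34.6 and 167 FPKM. Each of these was thus higher again at WPP than at 120 h. Across all eye risers 266 of 345 (77.1%) were higher at WPP than at 120 h in the whole disc, against 48 of 344 eye fallers (14.0%) and 36.3% of all genes above the floor.

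**Figure D2:**
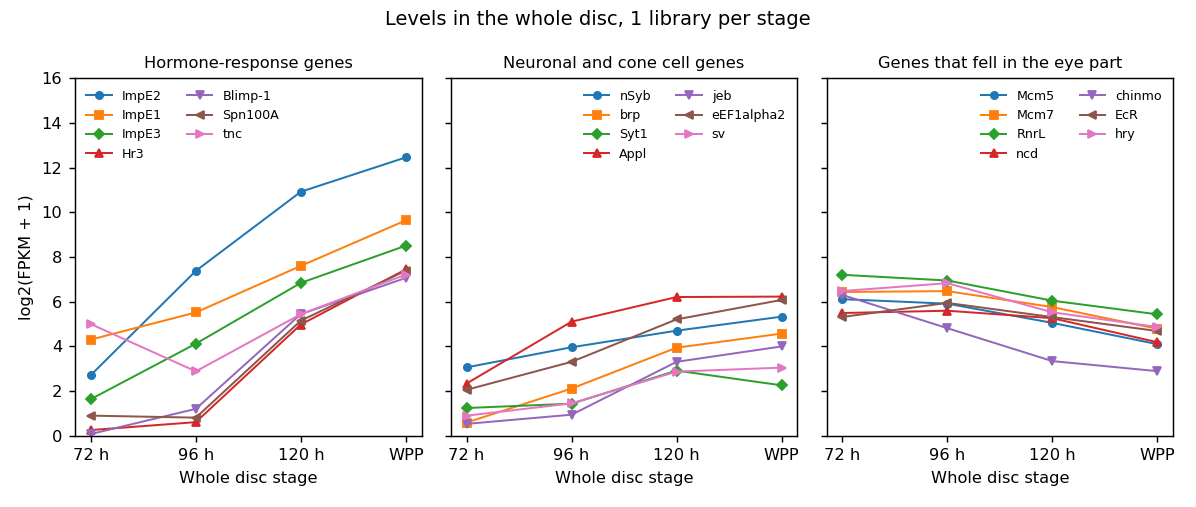
log2(FPKM + 1) in the whole disc at 72 h, 96 h, 120 h and white puparium formation (WPP), 1 library per stage, for 7 hormone-response genes (left), 7 neuronal and cone cell genes (middle) and 7 genes that fell in the eye part (right). Hormone-response genes are highest at WPP, and the replication genes Mcm5, Mcm7 and RnrL are lowest there.

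Of 16 pan-neuronal genes above the floor, 8 rose in the eye part, none fell, and all 16 had a positive change, as did 2524 of all 7241 genes above the floor. The list median was 0.97 in the eye part, -0.11 in the antenna part and 0.77 in the whole disc. Of the list, 8 had an eye change at least 1 above their antenna change, where 6.38% of 7550 genes did and 2.5% lay at least 1 below. With a pseudocount of 5 FPKM, 3 of the 8 risers still pass and the median is 0.73. Neuroblast and brain genes, 4 of 7 of them above the floor, summed to 124 FPKM at both ages in the eye part. Glial genes summed to 626 FPKM at 120 h and 579 FPKM at 96 h. No member of either list passed the rule, though 1 glial gene does after median-ratio rescaling. Of 8 glial genes above the floor, 6 had a positive change and 2 a negative one. The part of brain or glial tissue in the neuronal rises was not tested.

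Of the 8 risers, nSyb, brp, cpx and Syt1 are parts of the synaptic release machinery. nSyb, the vesicle SNARE of neurons, was at 52.3 FPKM at 120 h and 15.7 FPKM at 96 h in the eye part, against 0.575 and 5.23 FPKM in the antenna part. brp, the scaffold of the presynaptic active zone, was at 17.4 FPKM at 120 h and 4.33 FPKM at 96 h in the eye part, and at 0.350 and 0.593 FPKM in the antenna part. cpx, which clamps SNARE complexes, was at 16.1 FPKM at 120 h and 2.91 FPKM at 96 h in the eye, and Syt1, the calcium sensor of release, at 10.8 and 3.25 FPKM. Neither exceeded 1.39 FPKM in the antenna part. In the whole disc, brp was at 14.4 FPKM at 120 h and 3.33 FPKM at 96 h, and Syt1 at 6.56 and 1.71 FPKM, so both rose there as well, while the whole-disc changes of nSyb and cpx, 0.74 and 0.83, did not pass the rule.

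Other neuronal risers were Appl, the fly amyloid precursor protein, CadN, an adhesion molecule of photoreceptor axons, the transcription factor gene onecut, and pros. Appl was the most abundant, at 113 FPKM at 120 h and 55.7 FPKM at 96 h in the eye part and at 4.77 and 5.38 FPKM in the antenna part. The 8 members that stayed within the rule include the general neuronal markers. elav, an RNA-binding protein of all neurons, changed by 0.63, with 81.4 FPKM at 120 h and 52.4 FPKM at 96 h. The microtubule protein gene futsch changed by 0.04 and the transcription factor genes scrt and nerfin-1 by 0.35 and 0.93.

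**Figure D3:**
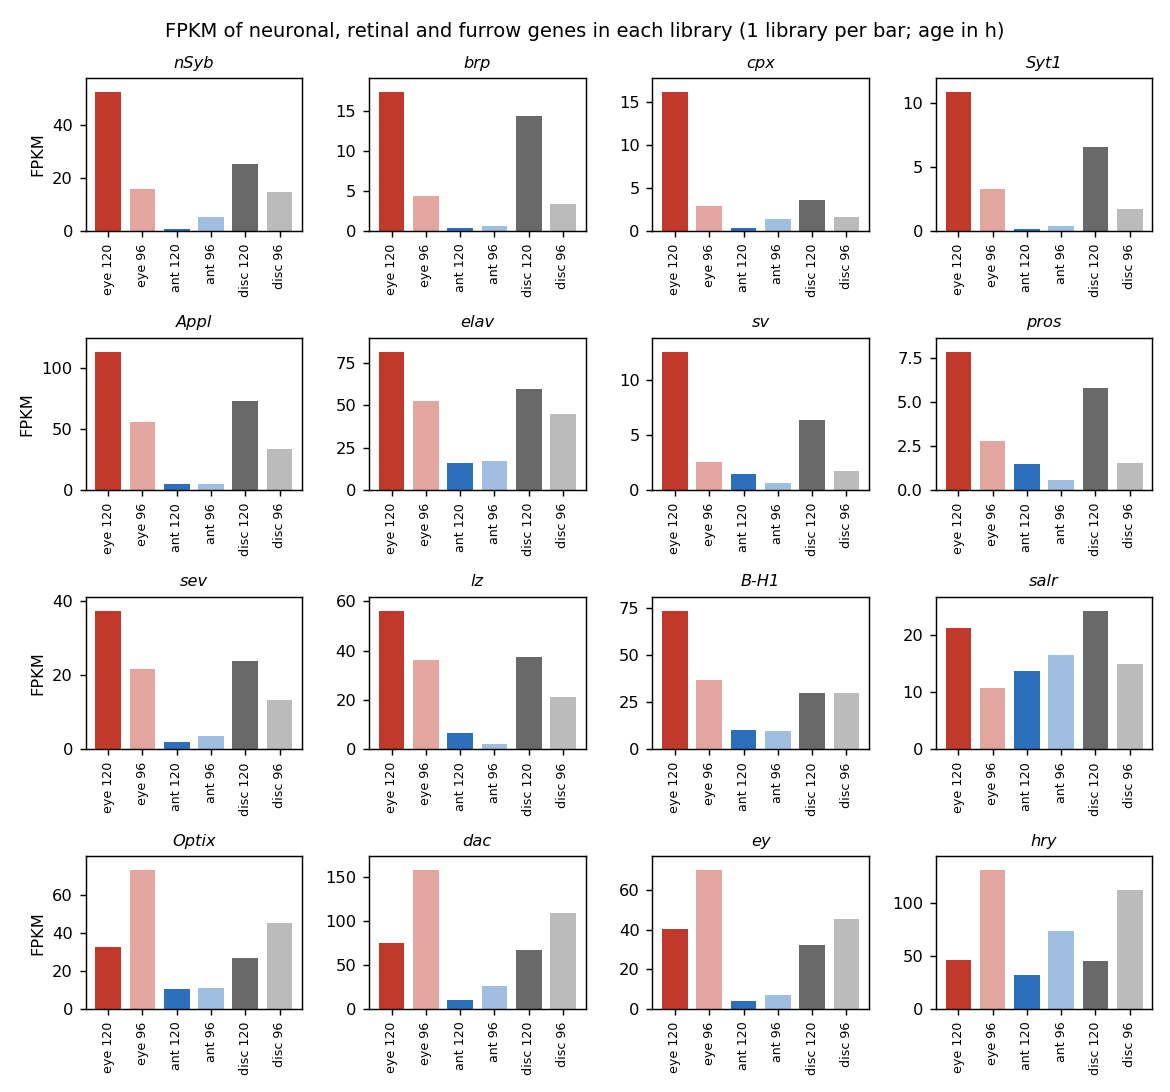
FPKM of 16 genes in the eye part (red), antenna part (blue) and whole disc (grey) at 120 h (dark) and 96 h (pale), 1 library per bar, with a linear axis from 0 in each panel. nSyb, brp, cpx and Syt1 are highest in the eye part at 120 h, while Optix, dac, ey and hry are highest in the eye part at 96 h.

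Further long genes with an eye-led rise, described here mainly for roles in neurons, were picked after their values were seen. Such risers also include the cuticle genes Cpr100A, Cpr72Ea, Vajk4 and TwdlT, the heat shock gene Hsp22, and Cyp4g1, a P450 of hydrocarbon synthesis. jeb, the ligand by which photoreceptor axons signal to the optic lobe, was at 17.2 FPKM at 120 h and 1.76 FPKM at 96 h in the eye part, against 0.464 and 0.358 FPKM in the antenna part. eEF1alpha2, a translation elongation factor isoform, was at 72.3 FPKM at 120 h and 13.7 FPKM at 96 h in the eye part and at 4.70 and 3.63 FPKM in the antenna part. Ekar, a glutamate receptor subunit of photoreceptors, was at 43.9 FPKM at 120 h and 9.87 FPKM at 96 h in the eye part, against 1.21 and 0.541 FPKM in the antenna part. The synaptic adhesion gene Nrx-1 and the immunoglobulin genes dpr7 and dpr9 also rose, with changes of 1.03, 1.81 and 1.40. Cow, which binds secreted Wingless, changed by 1.99, against -0.02 for the antenna part. In all, 151 risers had an eye change at least 1 above their antenna change. Of the 95 among them with a long transcript, 84 (88.4%) had a positive change in the whole disc.

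Among genes for recruitment of the R7 photoreceptor and cone cells, 2 of 10 rose and none fell, with a median of 0.56. sv, the Pax2 homologue required in cone and pigment cells, had the largest change, 1.92, with 12.6 FPKM at 120 h and 2.59 FPKM at 96 h in the eye part. In the whole disc sv was at 6.33 FPKM at 120 h and 1.73 FPKM at 96 h. pros, a homeodomain factor of R7 and cone cells, was at 7.87 FPKM at 120 h and 2.79 FPKM at 96 h. The receptor tyrosine kinase gene sev, which R7 precursors use, changed by 0.75, with 37.3 FPKM at 120 h and 21.7 FPKM at 96 h. ct, a cone cell homeodomain factor, and lz, a Runx factor of late-recruited cells, changed by 0.81 and 0.61. With a pseudocount of 5 FPKM only 1 of the 10 passes.

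Transcription factors of photoreceptor identity had a median change of 0.46, and 1 of 14, pros, rose. B-H1, which acts in R1 and R6, came just under the rule at 0.98, with 73.6 FPKM at 120 h and 36.9 FPKM at 96 h, but its level in the whole disc was 29.9 FPKM at 120 h and 30.3 FPKM at 96 h. salr and salm, needed in R7 and R8, changed by 0.92 and 0.75, and oc, the fly orthodenticle, by 0.86. By contrast svp, a nuclear receptor of R3, R4, R1 and R6, changed by 0.17, ro, a homeodomain factor of R2 and R5, by -0.41, and gl by 0.04. The number past the rule is 0 with a pseudocount of 5 FPKM and 4 with median-ratio rescaling.

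Of 13 retinal determination genes 2 fell, none rose, and 11 had a negative change, against 4717 of all 7241 genes above the floor, with a list median of -0.60. Optix, a Six-family factor expressed ahead of the furrow, was at 32.4 FPKM at 120 h and 72.7 FPKM at 96 h in the eye part. dac, a nuclear cofactor expressed around the furrow, was at 75.2 FPKM at 120 h and 158 FPKM at 96 h. ey, the fly Pax6, was at 40.4 FPKM at 120 h and 70.0 FPKM at 96 h, and eya, a phosphatase and coactivator, changed by -0.65. The exceptions were toe, at 0.19, and hth, a homeodomain factor of undifferentiated and margin cells, at 0.76. Under the median-ratio rescaling Optix and dac no longer pass the rule and the median is -0.43. In the whole disc Optix was at 72.8, 45.1, 26.5 and 18.7 FPKM over 72 h, 96 h, 120 h and WPP, lower at each stage than at the one before. The list as a whole had a whole-disc median of -0.13 from 96 to 120 h, with 1 gene past the rule upward and none downward. Its antenna median was 0.39.

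Genes of the furrow itself mostly stayed within the rule. Of 16 furrow signals and response genes, 1 fell: hry, a repressor expressed just ahead of the furrow that holds back ato, was at 46.0 FPKM at 120 h and 131 FPKM at 96 h in the eye part. It was at 31.6 and 74.1 FPKM in the antenna part and at 45.2 and 113 FPKM in the whole disc, so it fell in all 3. The secreted signals hh and dpp changed by -0.11 and -0.39, the Hedgehog receptor gene ptc by -0.42, and the Notch ligand gene Delta by 0.10. Among 5 genes of R8 specification none passed the rule. ato was at 82.1 FPKM at 120 h and 129.9 FPKM at 96 h, and its target sens, a zinc finger factor of R8, at 7.78 and 13.8 FPKM. sens had 5.18 FPKM at 120 h and 1.29 FPKM at 96 h in the antenna part, a gap of -2.19 between its eye and antenna changes.

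None of the 23 EGF receptor and Ras pathway genes passed the rule, and their median was 0.03; after median-ratio rescaling 1 passes. The largest positive change was that of the intramembrane protease gene ru, 0.89, with 105 FPKM at 120 h and 56.4 FPKM at 96 h. edl, which antagonises Ets factors, changed by 0.70 and rho, a relative of ru, by 0.69. The transcriptional effector gene pnt changed by -0.67, with 39.1 FPKM at 120 h and 62.9 FPKM at 96 h, and the MAP kinase kinase gene Dsor1 by -0.69. Of 9 E(spl) complex genes, which Notch activates, 1 rose: E(spl)m7-HLH, with 102 FPKM at 120 h and 43.6 FPKM at 96 h in the eye part and 115 and 55.3 FPKM in the antenna part.

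Genes needed only in later photoreceptors were mostly low. Of 16 phototransduction genes measured, 7 were above the floor and 2 rose. inaC, the eye protein kinase C, was at 20.4 FPKM at 120 h and 8.09 FPKM at 96 h in the eye part, and ninaB, the enzyme that cleaves carotenoids for retinal, was at 6.41 and 1.5 FPKM. Neither reached 1 FPKM in the antenna part, and neither passes with a pseudocount of 5 FPKM. The opsin genes Rh5 and Rh6 and the arrestin genes Arr1 and Arr2 were below the floor at both ages. Of 18 axon guidance and adhesion genes 1 rose, robo3, a Slit receptor, at 7.72 FPKM at 120 h and 2.81 FPKM at 96 h, which no longer passes with that pseudocount. None of the 12 eye pigment genes, 10 apical domain genes, 9 planar polarity genes, 8 glial genes, 6 IRRE adhesion genes or 8 ocellar genes above the floor passed the rule, though after rescaling 1 glial and 1 ocellar gene do. Of 8 antenna and appendage patterning genes 2 rose: the homeobox gene al was at 11.5 FPKM at 120 h and 4.08 FPKM at 96 h, and bab2, which patterns limb segments, at 13.4 and 5.36 FPKM. Both were higher in the antenna part, where al was at 57.6 FPKM at 120 h and 40.5 FPKM at 96 h, and neither passes with the pseudocount of 5 FPKM. The white gene w was at 1.93 FPKM at 120 h and 0.619 FPKM at 96 h, below the floor.

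Of 21 replication genes above the floor 11 fell, none rose, and all 21 had a negative change, as did 4717 of all 7241 genes above the floor, with medians of -1.0 in the eye part, -0.78 in the antenna part and -0.73 in the whole disc. The replicative helicase subunits led: Mcm6 was at 35.3 FPKM at 120 h and 86.6 FPKM at 96 h in the eye part, Mcm7 at 39.3 and 92.3 FPKM, and Mcm5 at 26.1 and 59.3 FPKM. The licensing factor gene dup, the DNA polymerase alpha gene PolA1 and the nucleotide enzyme genes RnrL, Ts and dnk fell as well, by changes of -1.13, -1.19, -1.01, -1.10 and -1.11. PCNA, the polymerase clamp, changed by -0.87, with 219.8 FPKM at 120 h and 404 FPKM at 96 h. No replication gene had an eye change 1 or more away from its antenna change. Rescaling by median ratio leaves 4 of the 11 past the rule and a median of -0.85, and a pseudocount of 5 FPKM leaves 6.

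Mitotic genes followed, with 7 fallers among 23, no riser and a median of -0.84. The kinesin gene ncd was at 24.6 FPKM at 120 h and 55.4 FPKM at 96 h, the kinase gene aurB at 27.2 and 57.1 FPKM, and cid, the centromeric histone, at 6.66 and 14.8 FPKM. Main cyclin and kinase genes changed less: CycB by -0.72, CycA by -0.17 and Cdk1 by -0.11. Under median-ratio rescaling no mitotic gene passes the rule and the median is -0.69, and with a pseudocount of 5 FPKM 1 passes. Of 15 regulators of G1 and cell cycle exit none passed, with stg, the phosphatase that triggers mitosis ahead of the furrow, at -0.21, against -1.27 for the antenna part. Of 15 ribosome biogenesis genes Fib, which methylates ribosomal RNA, fell by 1.05, and the median was -0.50; under the rescaling it no longer passes.

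**Figure D4:**
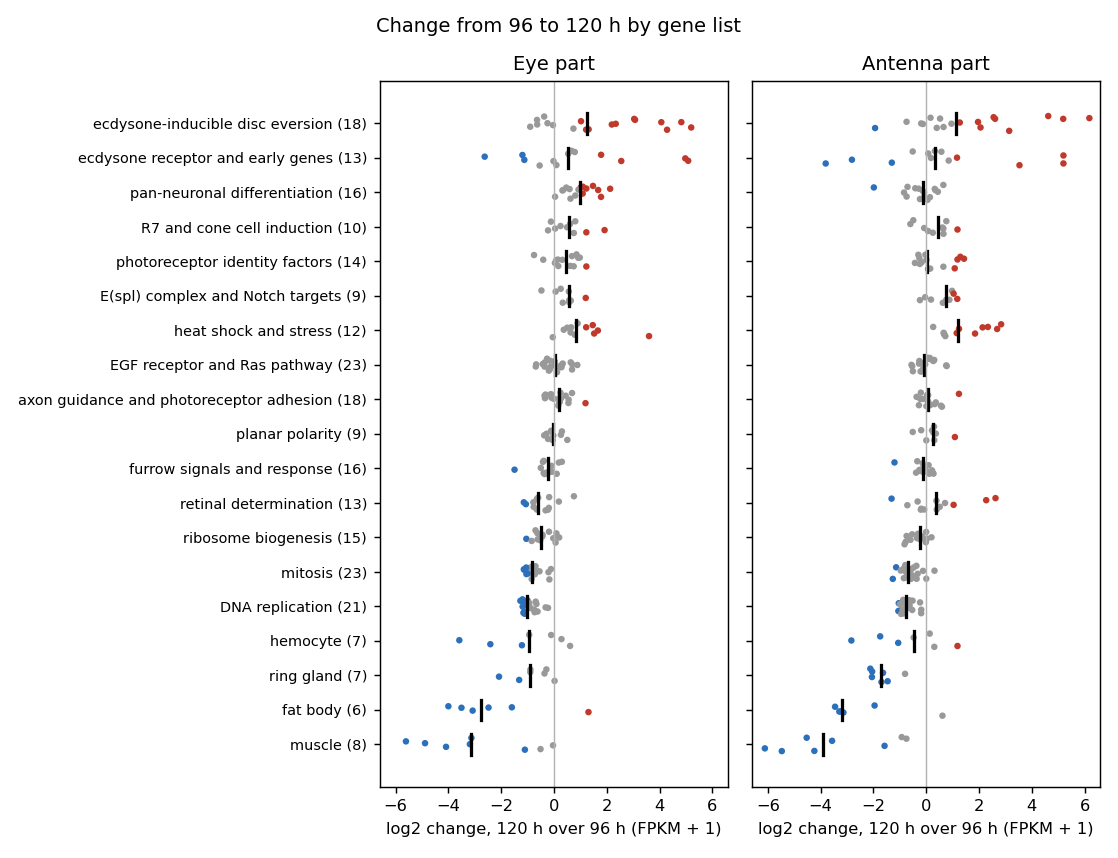
Change from 96 to 120 h of the members of 19 gene lists above the eye floor in the eye part (left) and the antenna part (right), log2 scale. Each point is a gene, red at 1 or more and blue at -1 or less, the black bar is the list median, and numbers of genes stand after the names. All 16 pan-neuronal genes lie right of 0 in the eye part, and all 21 replication genes lie left of 0 there.

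Of 12 stress genes 5 rose in the eye part and none fell; the risers are small heat shock genes, a class that ecdysone also induces. In the antenna part 7 of the list rose. In the whole disc 1 did, and it was none of the 5, whose changes there lay between 0.32 and 0.89. Hsp23 was at 4762 FPKM at 120 h and 1656 FPKM at 96 h, and Hsp27 at 3600.0 and 1299 FPKM. Hsp22 had the largest change, 3.60, with 39.0 FPKM at 120 h and 2.30 FPKM at 96 h, but in the whole disc it was at 25.1 and 14.9 FPKM. The inducible Hsp68 changed by 0.79 and the chaperone gene Hsp83 by 0.37. None of 9 apoptosis genes passed the rule (1 does after rescaling), with the caspase inhibitor gene Diap1 at 0.92 and the death genes hid and rpr at 0.70 and 0.61. Of 14 growth genes ImpL2 rose, and Thor, the translation inhibitor 4E-BP, changed by 0.80.

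Of 14 extracellular matrix genes 3 fell and Timp rose. The collagen IV genes vkg and Col4a1, whose chains form the basement membrane under the epithelium, were at 2.44 and 5.55 FPKM at 120 h and at 9.64 and 17.0 FPKM at 96 h in the eye part. In the antenna part vkg was at 5.50 FPKM at 120 h and 17.0 FPKM at 96 h. The matrix gene Tig fell by 1.09 in the eye part, and the laminin genes LanA and LanB1 changed by -0.38 and -0.22 there. With a pseudocount of 5 FPKM 1 of the 3 falls still passes and the rise of Timp does not. In the whole disc none of the 14 passed the rule, and the list median was 0.11. There vkg, Col4a1 and Tig changed by -0.41, -0.10 and -0.05. These collagens are also made by fat body and hemocytes. Between the eye libraries 5 of 6 fat body genes fell and 1 rose, and 3 of 7 hemocyte genes fell and none rose. The part of those tissues in this result was not tested.

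Cuticle and chitin genes split: 3 of 23 rose and 8 fell. The chitinase gene Cht10 was at 215 FPKM at 120 h and 85.2 FPKM at 96 h, and the cuticle gene TwdlT at 11.7 and 1.75 FPKM. Larval cuticle genes fell, among them Lcp4, at 7.78 FPKM at 120 h and 66.7 FPKM at 96 h in the eye part. Its level in whole larvae was 10577 FPKM at 120 h and 45271 FPKM at 96 h. The long cuticle genes Cpr72Ea and Vajk4, outside the list, rose, with 29.9 and 42.6 FPKM at 120 h and 0.869 and 4.70 FPKM at 96 h.

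Muscle and fat body genes were among the long named genes with the largest falls. Of 8 muscle genes above the floor 6 fell, with a list median of -3.16 in the eye part, -3.90 in the antenna part and -2.87 in the whole disc. The myosin light chain genes Mlc1 and Mlc2 were at 3.10 and 0.426 FPKM at 120 h and at 120.0 and 68.5 FPKM at 96 h in the eye part. In the antenna part they were at 25.6 and 9.91 FPKM at 120 h and at 1181 and 754 FPKM at 96 h. The muscle genes Mlp60A, TpnC25D and Prm, which are not on the list, fell too, by 6.20, 4.89 and 3.28. Summed over the list, muscle genes gave 332 FPKM at 120 h and 783 FPKM at 96 h in the eye part, of which Tm1, also a non-muscle gene, gave 294 and 302 FPKM.

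Some other markers moved with age as well. Of 6 fat body genes 5 fell and Fbp1 rose, and their sum was 92.1 FPKM at 120 h and 457 FPKM at 96 h in the eye part. The larval serum protein gene Lsp1gamma was at 7.38 FPKM at 120 h and 94.0 FPKM at 96 h in the eye part, against 3176 and 13736 FPKM in whole larvae. Of 7 hemocyte genes PPO2, Hml and Pxn fell in the eye part, with list sums of 126 FPKM at 120 h and 208 FPKM at 96 h. In the whole disc none of the 7 fell, and the list sums were 145 FPKM at 120 h and 134 FPKM at 96 h. PPO2, Hml and Pxn changed there by -0.07, -0.77 and -0.18. The ring gland genes jhamt and sro, which make juvenile hormone and ecdysone precursors, fell in the eye part. Their list sums there were 289 FPKM at 120 h and 439 FPKM at 96 h. Glue genes of the salivary gland gave 896 FPKM at 120 h and 262 FPKM at 96 h, and 3 of 4 rose. Tracheal genes gave 236 FPKM at 120 h and 120.1 FPKM at 96 h, and midgut genes 11.1 and 56.9 FPKM. Only 2 genes of each list were above the floor. The tracheal genes pio and vvl changed by 1.03 and -0.72, and the midgut genes Jon65Aiii and LManII by -5.36 and 0.09. Of the defining markers in the table, TpnC41C of muscle was listed at 0 at 96 h and betaTry of midgut at 0 at 120 h.

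At 96 h, 134 of 344 fallers (39.0%) stood at least 4-fold higher in the larva than in the whole disc on the log2(FPKM + 1) scale, against 46 of 345 risers (13.3%) and 4.24% of all genes above the floor. At 120 h the shares were 43.6%, 12.5% and 4.71%. Among fallers with a transcript of at least 1000 nt the share at 96 h was 28.3%. In the other direction, 73 of the 344 fallers (21.2%) stood at least 4-fold lower in the larva than in the whole disc at 96 h, beside 20.5% of all genes above the floor. The part of neighbouring tissue in the falls was not tested. The replication gene Mcm5, by comparison, was at 59.4 FPKM in the whole disc and 6.05 FPKM in the larva at 96 h.

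Set against the antenna part, the rises and falls were partly shared. Of the 345 risers, 174 had an eye change within 1 of their antenna change, 151 lay above it by at least 1 and 20 below. Of the 344 fallers, 211 lay within 1, 78 below and 55 above. Over all 7241 genes above the eye floor, 359 lay above by at least 1 and 163 below. Both parts passed the rule upward for 133 of the 345 risers and downward for 221 of the 344 fallers. Another 114 of the risers and 45 of the fallers lay below the floor in both antenna libraries, so no call was possible there. Of the 6552 genes within the rule in the eye part, 186 did. Among all 7241 genes above the eye floor, 259 passed the rule upward and 423 downward in the antenna part. In all, 14 genes passed it in opposite directions, 12 of them up in the eye part. Among long named genes these were nSyb, Cpr100A and Rbp6, a Musashi-family RNA-binding protein that stood at 54.2 FPKM at 120 h and 10.6 FPKM at 96 h in the eye part and at 3.36 and 10.6 FPKM in the antenna part.

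The largest gaps between the parts included cuticle genes and genes with low values. Cyp4g1, an enzyme of cuticular hydrocarbon synthesis, was at 7.85 FPKM at 120 h and 0.0100 FPKM at 96 h in the eye part and at 0.227 and 4.13 FPKM in the antenna part, a gap of 5.20. The cuticle gene Cpr31A, at 3.62 and 7.30 FPKM in the eye part, stood at 2.33 and 214 FPKM in the antenna part, a gap of 5.17. nrv3, a sodium pump subunit of neurons, was at 30.5 FPKM at 120 h and 11.0 FPKM at 96 h in the eye part and at 0.150 and 4.34 FPKM in the antenna part. On the other side, the Pax genes eyg and toe had gaps of -2.49 and -2.44. eyg was at 14.8 FPKM at 120 h and 17.4 FPKM at 96 h in the eye part and at 26.3 and 4.67 FPKM in the antenna part.

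The only fit with an error term for this age step took the 3 tissues (eye part, antenna part, whole disc) as 3 pairs (limma, terms for tissue and age, 2 residual degrees of freedom). It called 86 genes higher (0.947% of 9081) and 106 lower (1.17%) at an adjusted p under 0.05, and 1655 had an unadjusted p under 0.05. A change in the eye part alone adds to its error. Of the eye risers 72 were called higher, and of the eye fallers 88 were called lower. The eye libraries that defined them are part of the fit, so this overlap is not independent of the rule. The same holds for genes named here by the size of their eye change. Hr3 was higher in 3 of 3 pairs with a mean log2 change of 4.88 ± 0.23 (SE, limma adjusted p = 0.00308), with adjusted p between 0.000361 and 0.0136 over 6 other settings. Blimp-1 was higher in 3 of 3 pairs too (4.81 ± 0.23, limma adjusted p = 0.00308; 0.000361 to 0.0166 over those settings). tnc (2.73 ± 0.16, limma adjusted p = 0.00569) and Mlc1 (-4.87 ± 0.26, limma adjusted p = 0.00498) passed too, each in 3 of 3 pairs, with adjusted p up to 0.0323 and 0.0257 over those settings.

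Of the disc eversion list 5 were called higher by limma, of the replication list 5 lower, and of the 21 pan-neuronal genes tested none, with 6 at an unadjusted p under 0.05. hry was called lower (-1.33 ± 0.14, limma adjusted p = 0.0220), with adjusted p between 0.00777 and 0.0520 over 6 other settings. Mcm5 was called lower (-0.99 ± 0.13, limma adjusted p = 0.0375), with adjusted p between 0.0166 and 0.0726. The fit rests on the eye part: without its 120 h library or without its 96 h library, no gene was called higher and 1 was called lower. Nothing in the labels ties a pair to shared animals, and p-values measure only the spread between these 3 pairs.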

How the data were processed

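Poly(A) RNA was primed with random hexamers, joined to adapters, size-selected on gels and amplified, per the labels' protocols. FPKM values were deposited by the authors in 1 table. The submitters' processing notes list TopHat, Cufflinks and build dm3 with no version or role. No header names the unit, which was read from the values and the use of Cufflinks. The authors' deposited cluster number from 1 to 11 (unit other, no scale) was not used. Annotation, strand setting and depth: not given in the sources used here, so overlapping genes and near-identical copies are uncertain. All libraries carry replicate number 1, and each group holds 1.

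Symbols were found for 10308 of 10893 identifiers. The longest transcript per gene came from the reference annotation, whose build differs, so no coordinates are given. Changes are log2(FPKM + 1) differences with a floor of 5 FPKM in the higher library and a rule of 1. limma 3.58.1 (R 4.3.3, lmFit, eBayes with trend and robust) was fitted to 6 libraries with terms for tissue and age. It took genes at 1 FPKM or more in 2 or more libraries, two-sided, with Benjamini-Hochberg over all genes tested. The fit was also run on simulated data with independent noise and the same age effect in every tissue. That setting leaves out age changes that differ between tissues, which are part of the error here. The other values came from pandas 2.3.3 and numpy 2.4.6 under Python 3.11.15.

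Named genes were the 15 largest rises and 15 largest falls among genes with a symbol and a transcript of at least 1000 nt, the 10 largest gaps to the antenna part in each direction, and up to 6 members of each of 37 lists plus those needed for a count. Others named were chosen after their values were seen. The members and the lists were chosen with earlier results of these data known. Alternatives were pseudocounts of 0.1 and 5 FPKM, floors of 1 and 10 FPKM, median-ratio scaling, long transcripts only, and for limma also no filter, plain eBayes and leaving out each library. A fit without small noncoding RNA symbols and the lists in the whole disc pair were added after seeing the data.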

Additional observations from a re-analysis of the deposited data

Results flagged for a closer look

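Among long named genes, 3 passed the rule of size in opposite directions in the eye part and the antenna part; with 1 library in each group the difference was not tested. The eye change of Cpr100A, a cuticle protein gene, lay 5.10 above its antenna change: it was at 6.75 FPKM at 120 h and 2.72 FPKM at 96 h in the eye part, and at 1.74 and 44.1 FPKM in the antenna part. That of Rbp6 lay 3.66 above, and that of nSyb 3.66 above. In the whole disc, which shares none of these libraries, Rbp6 was at 33.5 FPKM at 120 h and 13.4 FPKM at 96 h and nSyb at 25.1 and 14.6 FPKM, both higher at 120 h, while Cpr100A was at 5.88 and 8.38 FPKM.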

How the results depend on the processing

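No paired analysis was possible because every library carries replicate number 1, so no replicate block could be fitted; the 3 pairs of ages in limma are matched by tissue alone. With a pseudocount of 5 FPKM, 224 genes rose and 226 fell in the eye part. The gap to the antenna change was also counted over 7550 genes with 5 FPKM in the highest eye or antenna library. Of these, 482 lay above and 189 below the antenna change with a pseudocount of 1 FPKM. With a pseudocount of 5 FPKM, 321 lay above and 120 below. With a floor of 1 FPKM 534 fell. With transcripts of at least 1000 nt alone, which tests fewer genes, 225 rose and 187 fell, and 276 lay above and 105 below. limma called 53 genes higher and 65 lower with no filter, 42 and 53 with plain eBayes, and 188 and 246 with small noncoding RNA symbols left out, a setting chosen after seeing the data. It called 59 lower with a pseudocount of 5 FPKM and 67 with median-ratio scaling. Leaving out 1 library at a time gave 0 to 148 higher and 1 to 233 lower: 144 and 118 without antenna 96 h, 148 and 127 without antenna 120 h, 108 and 215 without whole disc 96 h, and 111 and 233 without whole disc 120 h. The cause was not tested. The eye changes of 225 named genes were counted once per gene and setting under other pseudocounts and scaling. Of these, 624 stayed on the same side of the rule, 40 no longer passed it and 11 newly passed it. Counted likewise over 37 lists, 105 medians stayed on the same side, 4 no longer passed and 2 newly passed. Direction was not counted for changes within the rule. Some list medians near 0 changed sign under median-ratio scaling, such as that of planar polarity, from -0.05 to 0.11. With no replicate of a group and no read numbers, changes of low and short genes are the least certain.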
